A study of Mus musculus with 36 samples.

Results

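The 9 adipokine genes described here are *Adipoq*, *Cfd*, *Lep*, *Retn*, *Rbp4*, *Nampt*, *Rarres2*, *Fndc5* and *Nrg4*. They are a list of names, and each was found by its symbol in the GENCODE M21 annotation, so that they are 9 of the 55536 genes listed in every count file. Their counts came from 36 RNA-seq libraries of brown pre-adipocyte lines. The lines descend from 2 clones, numbered 48 and 66, of a clonal line in which *Rxra* had been disrupted with Cas9. All of them therefore lack their own RXRα (*Rxra*-/-), and all of them received mouse RXRα from a hygromycin-selected pBabe retrovirus, either wild type (*Rxra*WT) or with alanine in place of serine at residue 22 (*Rxra*SA). RNA was taken from confluent cells kept in insulin and T3 (day 0), after 2 days in which dexamethasone, IBMX and indomethacin were added (day 2), and after a return to insulin and T3 alone (day 6). Each clone, genotype and day had 3 libraries, so that a genotype had 6 and a day had 12. As a model the series rests on 2 clones with a virally driven receptor. Clone 48 was sequenced in pool 1 and clone 66 in pool 2, so clone and pool cannot be told apart. The deposit calls the 3 libraries of a line technical replicates whereas the study's methods call them independent. The p-values below measure the spread between these libraries, which may be technical. In the tests between days and between genotypes clone was a single term. There the spread also holds differences between the clones that change with day or genotype.

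Adipokines are proteins that adipocytes release to act on other tissues or on their neighbours. Most are made little or not at all by pre-adipocytes, and PPARγ, which binds DNA with RXR, and C/EBP factors switch many of them on as lipid-filled cells form. White fat is the best known source of leptin and resistin, while *Nrg4* and *Fndc5* are mostly discussed in connection with brown fat and muscle.

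The positions are those of GRCm38, and all 9 genes are annotated as protein coding. *Adipoq* (ENSMUSG00000022878.5, chr16:23146536-23158028, plus strand) encodes adiponectin, an insulin-sensitising hormone. *Cfd* (ENSMUSG00000061780.6, chr10:79890853-79892655, plus strand) encodes adipsin, the serine protease that starts the alternative complement pathway. *Lep* (ENSMUSG00000059201.12, chr6:29060220-29073877, plus strand) encodes leptin, the satiety hormone. *Retn* (ENSMUSG00000012705.16, chr8:3655770-3660110, plus strand) encodes resistin, which in mice opposes insulin. *Rbp4* (ENSMUSG00000024990.13, chr19:38116629-38125281, minus strand) encodes the retinol carrier of plasma. *Nampt* (ENSMUSG00000020572.8, chr12:32819545-32853349, plus strand) encodes the enzyme that makes nicotinamide mononucleotide, a step in NAD salvage, and its secreted form is called visfatin. *Rarres2* (ENSMUSG00000009281.6, chr6:48569696-48572789, minus strand) encodes chemerin, a chemoattractant. *Fndc5* (ENSMUSG00000001334.9, chr4:129136999-129144593, plus strand) encodes the precursor of irisin. *Nrg4* (ENSMUSG00000032311.17, chr9:55220222-55326844, minus strand) encodes neuregulin 4, a ligand of ErbB receptors.

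Promoter sequence is shown for 4 members because they run from no CpG to many and hold every searched motif that was found in more than 1 member. RefSeq (GRCm38.p6) gave 9 promoters for 8 members, with *Rbp4* having a pair of them and *Rarres2* none. The 250 bases before the start are printed on the strand of the gene, and capitals mark the motif matches named after the sequences. They were taken from chr16:23146286-23146535 for *Adipoq*, chr6:29059971-29060220 for *Lep*, chr19:38124812-38125061 on the minus strand for the second promoter of *Rbp4* and chr12:32820085-32820334 for *Nampt*.
Adipoq: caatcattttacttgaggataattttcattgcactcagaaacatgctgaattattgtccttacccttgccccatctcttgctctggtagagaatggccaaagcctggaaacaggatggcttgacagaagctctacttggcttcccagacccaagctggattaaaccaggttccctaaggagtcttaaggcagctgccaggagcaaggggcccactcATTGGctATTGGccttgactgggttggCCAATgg
Lep: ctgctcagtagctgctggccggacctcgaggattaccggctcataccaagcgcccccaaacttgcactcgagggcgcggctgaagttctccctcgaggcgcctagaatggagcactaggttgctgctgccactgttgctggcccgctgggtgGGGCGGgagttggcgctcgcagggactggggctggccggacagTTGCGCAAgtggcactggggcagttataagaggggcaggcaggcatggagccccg
Rbp4: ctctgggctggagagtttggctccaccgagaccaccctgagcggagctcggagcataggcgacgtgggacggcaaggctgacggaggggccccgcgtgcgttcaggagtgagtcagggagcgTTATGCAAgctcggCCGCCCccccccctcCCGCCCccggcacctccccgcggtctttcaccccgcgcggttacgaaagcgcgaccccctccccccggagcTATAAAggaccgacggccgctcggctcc
Nampt: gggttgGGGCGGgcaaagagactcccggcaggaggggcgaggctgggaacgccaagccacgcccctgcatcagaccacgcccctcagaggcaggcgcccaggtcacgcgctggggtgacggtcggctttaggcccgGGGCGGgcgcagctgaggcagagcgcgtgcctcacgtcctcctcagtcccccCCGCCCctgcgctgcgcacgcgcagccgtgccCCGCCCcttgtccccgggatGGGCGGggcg

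The *Adipoq* promoter held no CpG at all, those of *Cfd* and *Retn* held 2 each, and those of *Lep*, *Nampt* and *Fndc5* held 16, 27 and 38. The median over the 32851 promoters in the table was 6. A C/EBP motif (TTGCNNAA) stood in the promoters of *Lep* and *Rbp4*, in capitals as TTGCGCAA and TTATGCAA, and in 9.56% of all promoters. A TATA box (TATAAA) stood in the second *Rbp4* promoter and in 12.4% of all promoters. The GC box (GGGCGG) was found in *Lep*, the second *Rbp4* promoter, *Nampt* and *Fndc5*, against 32.7% of all promoters. The CCAAT box (CCAAT) was found in *Adipoq* and in the first promoter of *Rbp4*, which is not shown, against 33.8%. The DR1 element, a direct repeat that PPARγ and RXR can bind, the E-box (CACGTG) and the CRE (TGACGTCA) matched in 0.0335%, 6.02% and 1.55% of all promoters and in no promoter of the 8 members. Both strands were searched, and no 2 of these motifs share letters in the sequences shown except where the C/EBP motif of *Lep* reads alike on both strands. A match is a match of letters and says nothing about binding.

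Total counts per library ranged from 11351078 to 24349263, with a median of 18338726. *Rxra* itself was read at 157.1 to 549.2 CPM, that is counts relative to the TMM-scaled library total, as the mean of each genotype and day, and the means of *Rxra*WT and *Rxra*SA on the same day lay within 1 SD of each other. These reads include those of the virus. The 8 general adipocyte markers summed to 501.7 to 1352.5 CPM at day 0 and to 8958.0 to 12918.0 at day 6. The 7 pre-adipocyte markers summed to 1733.3 to 2324.9 CPM at day 0 and still to 666.8 to 924.9 at day 6. The 8 brown adipocyte markers summed to 10.7 to 18.1 CPM at day 0 and 57.0 to 90.7 at day 6. Of the 5 that could be tested 5 were higher at day 6, against 32.9% of all genes tested. At day 0, 6 of the 8 had at most 5 counts in every library, against 1 of the 8 at day 6. Tested markers this low at day 0 passed the filter on low counts through later days, and their rise was bound to be found. *Ucp1*, the uncoupling protein that defines brown fat, reached at most 0.307 CPM in any library. The summed markers were at most 12.7 CPM for macrophages, 2.43 for endothelial cells and 11.8 for muscle.

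All 9 adipokines were higher at day 6 than at day 0, and the 9 genes together rose from between 0.00945 and 0.0212% of all counts per library at day 0 to between 0.256 and 0.701% at day 6. At day 2, 6 of them had risen and 3 (*Lep*, *Rbp4* and *Fndc5*) did not pass the test. None was called lower between any pair of days, and all 9 rose from day 2 to day 6. These calls used edgeR's quasi-likelihood test with a Benjamini-Hochberg adjusted p under 0.05, fitted on 16723 genes. Over all of these, 35.8% were called higher and 37.5% lower at day 2 than at day 0, 32.9% higher and 35.4% lower at day 6 than at day 0, and 31.9% higher and 30.1% lower at day 6 than at day 2. The 3 comparisons share libraries. All 9 genes passed the filter on low counts, but *Lep*, *Rbp4* and *Fndc5* passed only through their day 6 libraries. *Retn* and *Cfd* passed only through those of days 2 and 6, since *Cfd* reached the cut in only 2 of the 12 libraries of day 0. The rise of the first 3 to day 6 and those of *Retn* and *Cfd* from day 0 were bound to be found. The counts of calls include them. In bulk RNA a rise in the number of differentiated cells and a rise in RNA per cell cannot be told apart, and the general adipocyte markers rose beside the adipokines, with 8 of 8 called higher on both later days.

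**Figure D1:**
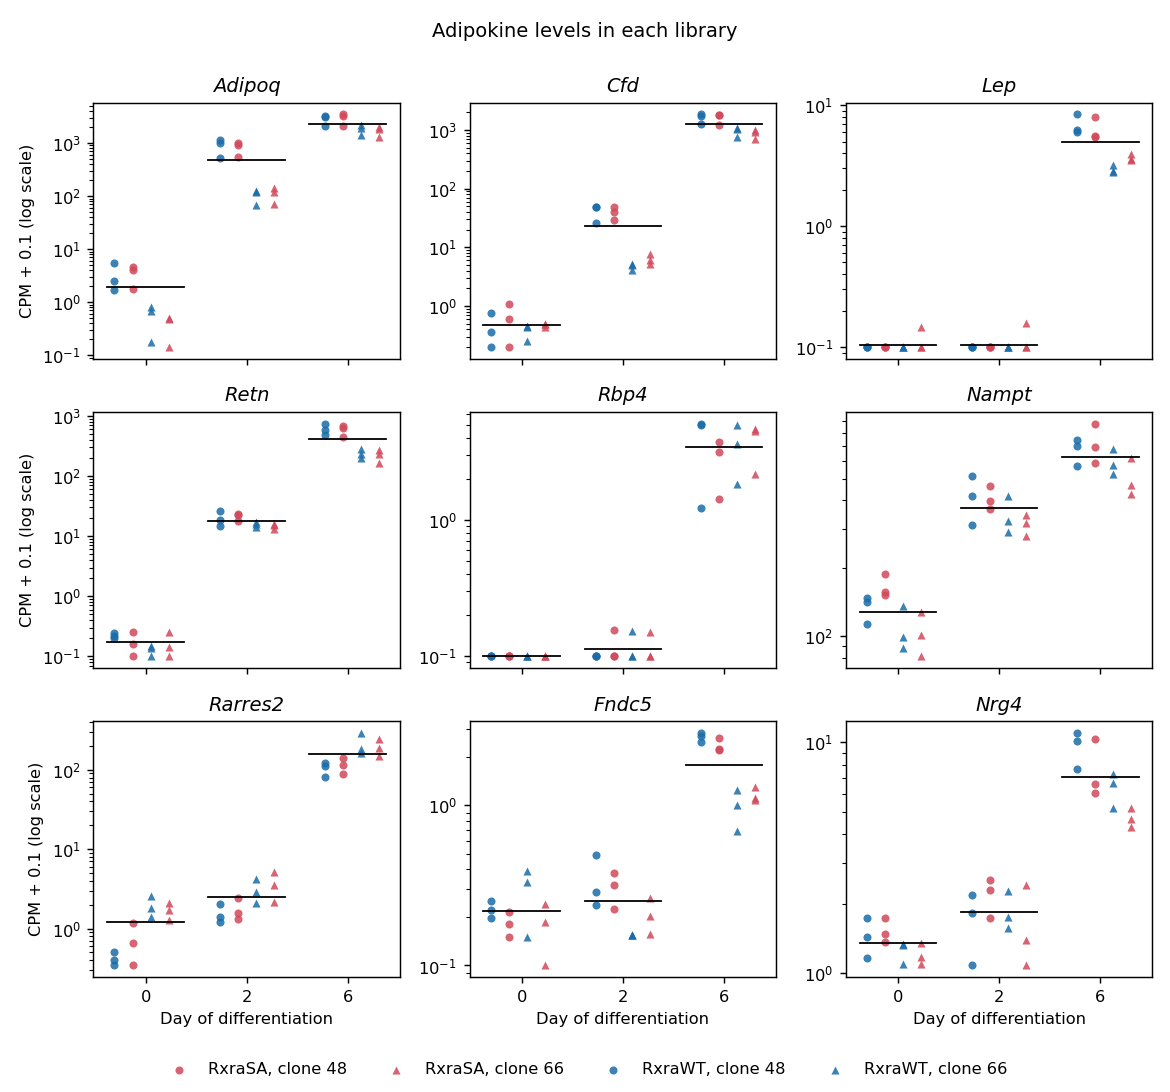
Level of each adipokine (CPM + 0.1, log scale) in every library against the day of differentiation, with *Rxra*WT in blue, *Rxra*SA in red, clone 48 as circles, clone 66 as triangles and a bar for the mean of the 12 libraries of a day. *Lep* and *Rbp4* stay at the floor until day 6, *Adipoq* and *Cfd* already separate the clones at day 2, and *Nampt* starts high.

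*Adipoq* rose at both steps. In clone 48 it was read at 1.58, 3.17 and 5.39 CPM (lowest, median and highest of 6 libraries) at day 0, at 533.7, 955.5 and 1141.7 at day 2 and at 2090.5, 3118.0 and 3450.7 at day 6. In clone 66 the same 3 values were 0.0432, 0.388 and 0.713 to begin with, then 67.5, 120.4 and 144.5 at day 2, and finally 1294.7, 1848.6 and 2189.9. No library of one day overlapped with a library of another day. The log2 fold change was 7.99 ± 0.41 (SE) from day 0 to day 2 (adjusted p = 1.15e-18) and 2.98 ± 0.32 from day 2 to day 6 (adjusted p = 6.39e-10). The level at day 2 was 30.0% of the level at day 6 in clone 48 and 6.11% in clone 66.

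*Cfd* and *Retn* rose by day 2 and again by day 6. *Cfd* was low at day 0 (0.0988 to 0.975 CPM, 2 to 17 counts per library), was read at 26.2, 43.7 and 48.6 CPM in clone 48 and at 3.92, 5.11 and 7.62 in clone 66 at day 2, and reached 1232.8, 1755.8 and 1834.1 in clone 48 and 706.6, 963.7 and 1084.1 in clone 66 at day 6. Its log2 fold change was 5.56 ± 0.35 to day 2 (adjusted p = 4.43e-16) and a further 6.27 ± 0.30 to day 6 (adjusted p = 4.79e-19). Day 2 thus stood at 1.79% of the day 6 level in CPM, against 4.29% for *Retn* and 20.9% for *Adipoq*. *Retn* had 0 to 3 counts per library at day 0 and 17 counts in all. At day 2 it was read at 14.7, 20.2 and 26.0 CPM in clone 48 and 12.8, 15.6 and 17.1 in clone 66. At day 6 the values were 449.1, 611.7 and 742.1 against 165.8, 234.5 and 277.1. The days did not overlap for either gene. Both passed the filter only through days 2 and 6, so their rise from day 0 was bound to be called. The ratio of summed *Retn* counts to day 0 was 243.5 at day 2 (95% exact interval 151.9 to 418.5) and 5586.0 at day 6 (3488.6 to 9589.5), and these intervals, like the others on count ratios, cover counting error only.

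Leptin and retinol binding protein 4 were read almost only at day 6, and the irisin precursor was read at few counts before it. *Lep* had 1 count in the 12 libraries of day 0, 1 count in those of day 2 and 1045 counts in those of day 6. At day 6 it was read at 5.39, 5.99 and 8.27 CPM in clone 48 and at 2.71, 3.27 and 3.83 in clone 66, and the clones did not overlap. The ratio of summed counts was 1127.7 to day 0 (interval 202.0 to 44583.5) and 970.9 to day 2 (173.9 to 38384.2). *Rbp4* had no count at day 0, 3 counts at day 2 and 745 at day 6. It was thus at least 268-fold higher at day 6 than at day 0, with 3 counts over the 12 libraries as the floor, and its ratio to day 2 was 230.7 (78.6 to 1121.3). Its rise to day 2 did not pass the test (adjusted p = 0.185) and did so with replicate number as a block (adjusted p = 0.0494), on those 3 counts. At day 6 it was read at 1.12, 3.37 and 5.01 CPM in clone 48 and at 1.75, 3.96 and 4.93 in clone 66, with the clones overlapping. The first replicate was the lowest of the 3 in each of the 4 lines. *Fndc5* had 0 to 6 counts per library at days 0 and 2, with a log2 difference between them of 0.30 (95% interval -0.40 to 1.01, adjusted p = 0.437). It then rose 3.41 ± 0.23 on the log2 scale to day 6, to 2.12, 2.47 and 2.74 CPM in clone 48 and 0.59, 0.997 and 1.2 in clone 66. Since *Lep*, *Rbp4* and *Fndc5* passed the filter only through day 6, their rise to that day was bound to be called. Depth limits what can be said of these 3 genes before day 6, where a few counts per library would not show a small change.

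*Nampt* and *Nrg4* reached the cut of the filter in all 12 libraries of day 0, and *Rarres2*, like *Adipoq*, in 8 of them. *Nampt* was at 113.0, 149.3 and 188.4 CPM in clone 48 and 81.2, 99.9 and 135.8 in clone 66 at day 0, at 310.2, 407.1 and 513.0 against 278.8, 320.7 and 417.0 at day 2, and at 567.3, 696.3 and 877.0 against 427.3, 551.1 and 678.8 at day 6. It rose 1.55 ± 0.10 on the log2 scale to day 2 (adjusted p = 1.70e-15) and a further 0.75 ± 0.10 to day 6 (adjusted p = 6.44e-08). Its day 2 level was 59.4% of that at day 6, the highest such share among the 9. *Rarres2* was low at first, with a log2 fold change of 1.16 ± 0.21 to day 2 (adjusted p = 1.19e-05), and then rose 6.07 ± 0.20 (adjusted p = 4.82e-23). It was the only member called higher in clone 66. Its lowest, median and highest libraries there were at 1.17, 1.66 and 2.49 CPM against 0.242, 0.352 and 1.09 in clone 48 at day 0, and 150.6, 184.5 and 291.1 against 81.3, 113.1 and 141.8 at day 6. *Nrg4* rose 0.48 ± 0.15 to day 2 (adjusted p = 0.00472), a value that did not pass when counts were scaled by library size alone (0.22, adjusted p = 0.199). From day 2 to day 6 it rose 1.95 ± 0.14 (adjusted p = 2.32e-14), to 5.96, 8.81 and 10.9 CPM in clone 48 and 4.18, 5.12 and 7.22 in clone 66, and its day 2 and day 6 libraries did not overlap. Counting ignored strand, and *Rarres2* shares 33.58% of its exonic bases with *Lrrc61* on the other strand and *Nrg4* 8.97% with *Fbxo22* and *Gm15625*, so both are uncertain to that extent. *Lrrc61* itself was read at 1.7 to 6.69 CPM over all libraries, below *Rarres2* at day 6 and in the range of *Rarres2* at days 0 and 2, and *Fbxo22* at 25.2 to 66.0 CPM.

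Set side by side as levels per length (CPM per kilobase of annotated exon, mean ± SD of 12 libraries), the adipokines covered more than 3 orders of magnitude at day 6. *Adipoq* led at 1675.6 ± 534.0 and *Cfd* followed at 1373.4 ± 457.1. *Retn* was at 262.4 ± 132.1, *Nampt* at 123.1 ± 24.7 and *Rarres2* at 59.0 ± 23.7. *Rbp4* (2.5 ± 1.09), *Lep* (1.45 ± 0.575), *Nrg4* (1.15 ± 0.378) and *Fndc5* (0.615 ± 0.286) formed the low end. Each gene was above the next in 12 of 12 libraries, except *Rbp4* over *Lep* in 9 and *Lep* over *Nrg4* in 7. Over the libraries as a whole, the ranges of neighbours overlapped other than between *Cfd* and *Retn* and between *Rarres2* and *Rbp4*. The order was another one at day 0, when *Nampt* led at 25.2 ± 6.31 and *Adipoq*, at 1.31 ± 1.35, came next by mean. On that day *Adipoq* was above the gene after it, *Rarres2* (0.412 ± 0.285), in 6 of 12 libraries, and their ranges overlapped. At day 2 *Adipoq* (350.3 ± 310.5) had passed *Nampt* (73.2 ± 14.4) in 10 of 12 libraries. With the length of the longest transcript in place of all exons, *Nrg4* stood at 3.34 and above *Rbp4* and *Lep* at day 6.

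**Figure D2:**
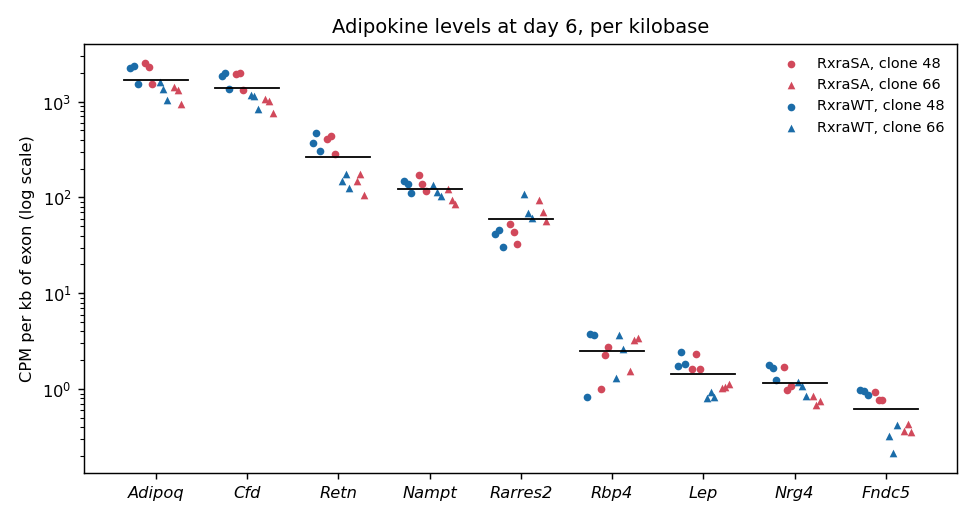
Level per length of the 9 adipokines at day 6 (CPM per kilobase of exon, log scale), with 1 point per library, *Rxra*WT in blue and *Rxra*SA in red, circles for clone 48, triangles for clone 66 and a bar for the mean of the 12 libraries. *Adipoq* and *Cfd* lie highest, and a wide gap separates *Rarres2* from *Rbp4*, *Lep*, *Nrg4* and *Fndc5*.

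The question the study put to these cells is whether losing the serine at residue 22 of RXRα changes differentiation. For the adipokines no difference between *Rxra*SA and *Rxra*WT passed edgeR's quasi-likelihood test on any day, with 0 of 9 called at each of days 0, 2 and 6 and every adjusted p equal to 1. Over all 16723 genes 0% were called on each day, with 139, 162 and 125 genes at an unadjusted p under 0.05, and DESeq2 called none of the 9. At day 6 *Adipoq* was at 2325.1 ± 708.3 CPM in *Rxra*WT and 2302.8 ± 833.3 in *Rxra*SA (SD, n = 6), with a log2 difference of -0.07 (95% interval -0.89 to 0.75). *Cfd* was at 1283.7 ± 413.5 against 1248.9 ± 468.1 (-0.08, interval -0.75 to 0.58) and *Retn* at 420.6 ± 218.1 against 408.1 ± 219.2 (-0.05, interval -0.43 to 0.33). *Lep* was at 4.8 ± 2.29 against 4.92 ± 1.71 (0.09, interval -0.27 to 0.46), and *Nampt* at 632.6 ± 88.0 against 612.0 ± 162.3 (-0.07, interval -0.36 to 0.22). For *Rarres2*, *Rbp4* and *Fndc5* the differences were 0.01 (interval -0.43 to 0.46), -0.16 (interval -0.81 to 0.48) and 0.00 (interval -0.68 to 0.67). The ranges of the genotypes overlapped for every member on every day. Each range holds both clones, so overlap was close to given where the clones differ, and it is no sign of equal levels. These intervals come from the fit without the replicate block. With the block the SE at day 6 was 0.34 in place of 0.40 for *Adipoq* and 0.09 in place of 0.14 for *Nampt*. Both of these fits hold clone as a single term. With the block and a separate mean for each clone, genotype and day it was 0.13 (difference -0.04) and 0.08 (difference -0.08). In any of these fits 0 of 9 were called.

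*Nrg4* at day 6 was the only member on any day whose 95% interval did not include 0. By edgeR's quasi-likelihood test 0 of 9, 0 of 9 and 1 of 9 members had an unadjusted p under 0.05 on days 0, 2 and 6, and its adjusted p was 1. *Nrg4* was at 7.9 ± 2.18 CPM in *Rxra*WT and 6.1 ± 2.22 in *Rxra*SA, a log2 difference of -0.38 (95% interval -0.74 to -0.02). *Rxra*SA was lower in 6 of 6 pairs of libraries with the same clone and replicate number. The adjusted p stayed at 1 under every alternative, with differences from -0.47 to -0.30. *Fndc5* at day 0 was also lower in *Rxra*SA in 6 of 6 pairs, on 0 to 6 counts per library, with a log2 difference of -0.98 (interval -2.00 to 0.05, adjusted p = 1). No difference between genotypes in the change over time was called either. edgeR's quasi-likelihood test called 0 of 9 from day 0 to day 2 and 0 of 9 from day 0 to day 6, with 0% of all genes called and 144 and 128 at an unadjusted p under 0.05, and DESeq2 called 0 of the 9. A difference between the clones in the effect of genotype was not called by edgeR's test, with 0 of 9 and 0% of all genes called on each day, 283, 214 and 200 genes at an unadjusted p under 0.05 on days 0, 2 and 6, and 0 of the 9 called by DESeq2.

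**Figure D3:**
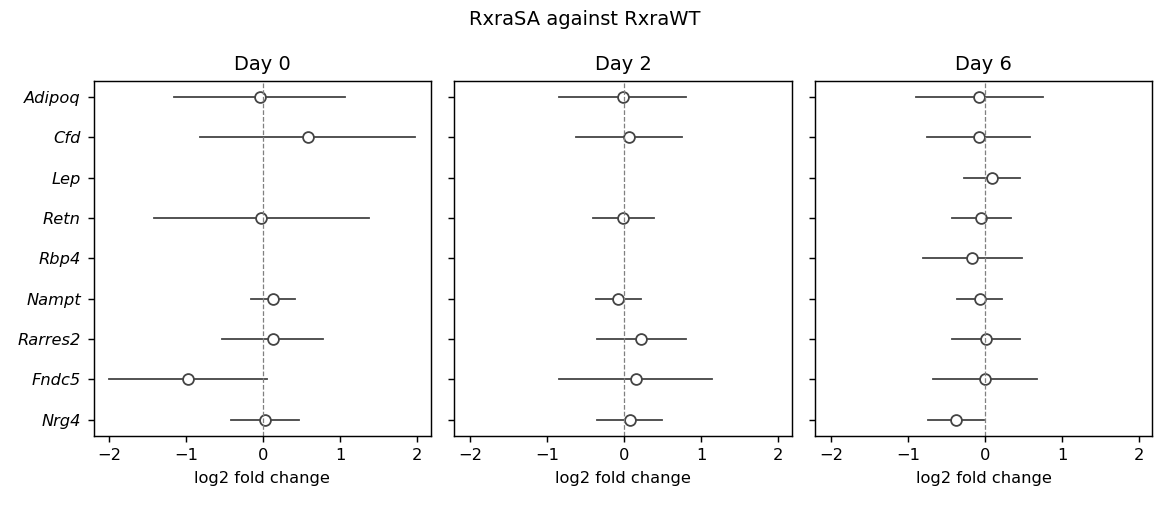
Log2 fold change of *Rxra*SA against *Rxra*WT for each adipokine on each day, with 95% intervals as bars and filled symbols for an adjusted p under 0.05. *Lep* and *Rbp4* are not drawn at days 0 and 2, where they had at most 3 counts in all. No symbol is filled, and the intervals of *Nampt* are the narrowest of the members drawn.

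Differences between the clones were called on every day. At day 0, 3 of 9 members differed between clones 66 and 48, against 23.7% of all genes, at day 2 5 of 9, against 30% of all genes, and at day 6 6 of 9, against 26.2% of all genes. Of these calls, *Rarres2* was higher in clone 66 on all 3 days and every other call was lower in clone 66. *Adipoq* differed most before differentiation, with a log2 difference of -3.22 ± 0.43 (SE, adjusted p = 1.11e-06), and kept that difference at day 2 (-3.00 ± 0.30, adjusted p = 7.15e-09), when clone 48 was at 859.6 ± 253.9 CPM and clone 66 at 107.8 ± 31.2 (SD, n = 6). At day 6 the clones overlapped at 2863.0 ± 600.7 and 1764.9 ± 334.9, and the difference of -0.70 ± 0.28 did not pass (adjusted p = 0.0693). It passed in 4 of 16 fits, counting the main one, among them replicate number as a block (-0.69, adjusted p = 0.000155). *Cfd* was not called at day 0, with 0.43 ± 0.347 CPM in clone 48 and 0.327 ± 0.0897 in clone 66 (adjusted p = 0.623). At day 2 it had parted by -2.88 ± 0.23 (adjusted p = 5.13e-11), at 39.8 ± 9.99 against 5.46 ± 1.26, and at day 6 by -0.81 ± 0.21 (adjusted p = 0.00362), at 1610.8 ± 287.5 against 921.7 ± 152.5. *Retn* went the other way, with little difference at day 2 (-0.43 ± 0.17, adjusted p = 0.0498) and more at day 6 (-1.37 ± 0.16, adjusted p = 1.70e-07), at 597.7 ± 114.8 against 231.0 ± 43.3.

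*Lep* (-1.02 ± 0.17, adjusted p = 0.000259), *Fndc5* (-1.32 ± 0.20, adjusted p = 7.30e-06) and *Nrg4* (-0.65 ± 0.17, adjusted p = 0.00519) were lower in clone 66 at day 6. Among these *Lep* and *Fndc5* did not overlap between clones and *Nrg4* did. *Fndc5* was also called at day 2 (-1.44 ± 0.44, adjusted p = 0.0267), on 1 to 6 counts per library. *Rarres2* was higher in clone 66 by 1.87 ± 0.33 at day 0 (adjusted p = 8.48e-05), 1.06 ± 0.27 at day 2 (adjusted p = 0.00311) and 0.89 ± 0.21 at day 6 (adjusted p = 0.00184). *Nampt* was lower in clone 66 at day 0 (-0.50 ± 0.14, adjusted p = 0.0115), and at days 2 and 6 its differences of -0.32 and -0.34 did not pass (adjusted p = 0.0912 and 0.0802). With the block they did (adjusted p = 0.00302 and 0.00172), as they did without the third replicate of clone 48 (adjusted p = 0.0283 and 0.0189) or the first of clone 66 (adjusted p = 0.0187 and 0.0114). *Rbp4* did not differ detectably at day 6 (0.17, interval -0.54 to 0.88).

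Several of these calls were lost when 1 set of libraries of a clone was left out, that is, the 6 libraries with the same replicate number. The *Nampt* call at day 0 was lost without the first replicate of clone 48 (adjusted p = 0.0667) and without the second or the third of clone 66 (adjusted p = 0.0828 and 0.0835). At day 2 the *Retn* call was lost without any of the first 2 replicates of clone 48 or any replicate of clone 66 (adjusted p = 0.0562 to 0.352) and the *Fndc5* call without the first 2 of clone 48 or the last 2 of clone 66 (adjusted p = 0.0556 to 0.0951). At day 6 the *Nrg4* call was lost without the first replicate of clone 48 (adjusted p = 0.0714) and the *Cfd* call without the third of clone 66 (adjusted p = 0.0509). The calls on *Adipoq* at days 0 and 2, *Cfd* at day 2, *Rarres2* on all days, and *Lep*, *Retn* and *Fndc5* at day 6 passed without each of them.

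**Figure D4:**
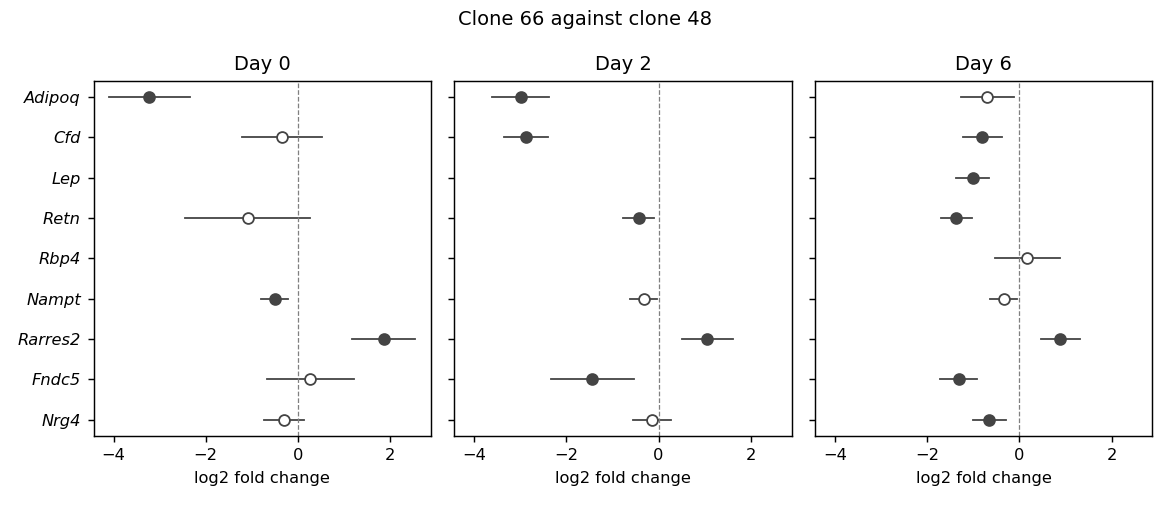
Log2 fold change of clone 66 against clone 48 for each adipokine on each day, with 95% intervals as bars and filled symbols for an adjusted p under 0.05. *Lep* and *Rbp4* are not drawn at days 0 and 2. *Adipoq* and *Cfd* lie near -3 at day 2 and close to -1 at day 6, and *Rarres2* lies to the right of 0 on all days.

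The change over time itself was compared between clones. From day 0 to day 2 the rise of *Cfd* was smaller in clone 66 by 2.54 ± 0.49 on the log2 scale (interaction -2.54, adjusted p = 0.00107), the only 1 of 9 members called against 6.84% of all genes. From day 0 to day 6 the rise of *Adipoq* was larger in clone 66 by 2.52 ± 0.52 (adjusted p = 0.00332), again 1 of 9, against 3.85% of all genes. With the block *Rarres2* was called as well (-0.98, adjusted p = 0.0205, against 0.209 without it). Without the first replicate of clone 66 *Fndc5* was called (-2.03, adjusted p = 0.0387). From day 2 to day 6, 3 of 9 were called, against 6.18% of all genes. *Adipoq* and *Cfd* rose more in clone 66 (2.30 ± 0.40, adjusted p = 0.000365, and 2.07 ± 0.30, adjusted p = 2.93e-05) and *Retn* less (-0.94 ± 0.23, adjusted p = 0.0104, or 0.0582 without the third replicate of clone 66).

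The general adipocyte markers *Pparg*, *Cebpa*, *Fabp4* and *Plin1* lay closer between the clones at day 2 than *Adipoq* and *Cfd*, a contrast that was not tested. *Pparg* was at 416.4 ± 62.4 CPM in clone 48 and 382.4 ± 43.9 in clone 66 (SD, n = 6), *Cebpa* at 752.9 ± 104.5 and 683.5 ± 48.9, *Fabp4* at 2038.7 ± 382.4 and 1746.6 ± 239.9, and the lipid droplet gene *Plin1* at 271.8 ± 29.6 and 317.7 ± 47.7. Of the 8 general adipocyte markers 2 (*Slc2a4* and *Cd36*) were called higher in clone 66 at day 2 and 0 lower. At day 0, 1 of the 8 was higher in clone 66 (*Slc2a4*, log2 difference 0.76) and 2 were lower (*Cebpa*, -1.32, and *Lpl*, -0.93), and at day 6 1 was higher and 0 lower. At day 6, 4 of the 5 brown adipocyte markers tested were lower in clone 66, with log2 differences of -1.62 for *Cidea*, -1.42 for *Elovl3*, -1.74 for *Cox7a1* and -0.59 for *Ppargc1a*. Of the 5 pre-adipocyte markers tested, 0 were higher and 4 lower in clone 66 at day 0, against 23.7% of all genes called in either direction. At day 2, 2 were higher and 2 lower, against 30% of all genes. At day 6, 1 was higher and 3 lower, against 26.2%. The part of all these markers, and of the sequencing pool, in the differences between clones was not tested.

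Each adipokine was set beside all genes whose log2 CPM averaged 3 or more, by Pearson's r of log2 CPM over the 36 libraries, as a description of shared profiles. These libraries fall into 3 days, so that any gene that rises late scores high. *Adipoq* was most like *Lgals12* (r = 0.992), *Pla2g16* (0.989) and *Uck1* (0.988). *Cfd* was most like *Tst* (0.994), *Klb* (0.990) and *4930511E03Rik* (0.989), and *Retn* like *Gzf1* (0.992), *Mgll* (0.992) and *Ffar4* (0.991). *Apoc1* was among the closest 3 genes of both *Lep* (0.986) and *Rbp4* (0.971), and *Adcy5* among those of *Lep* (0.984) and *Fndc5* (0.936). *Nampt* was most like *Mtm1* (0.983), *Rarres2* like *Dram1* (0.982) and *Nrg4* like *Aatk* (0.950). No gene passed an r of 0.95 with *Fndc5* or *Nrg4*, whereas 91 did with *Retn*.

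The genes around the adipokines were described by lists. Over all 16723 genes tested, 35.8% were called higher and 37.5% lower at day 2 than at day 0. At day 6 these shares were 32.9% and 35.4%. Of the receptors and binding partners 10 of 17 were expressed enough to be tested, and at day 2 2 were higher and 7 lower than at day 0, with a median log2 fold change of -0.97 against -0.02 over all genes. At day 6, 3 were higher and 4 lower. *Adipor2*, a receptor of adiponectin, rose 4.40 ± 0.08 on the log2 scale to day 2 (adjusted p = 1.07e-31) and remained 2.18 ± 0.07 above day 0 at day 6 (adjusted p = 1.76e-24), while *Adipor1* differed by -0.30 at day 2. *Gpr1*, a chemerin receptor, was higher on both days (1.50 and 0.73), and *Cmklr1*, the signalling receptor of chemerin, was higher at day 6 (3.48). Both were picked after their values were seen. *Erbb2*, a coreceptor for neuregulins, fell (-2.37 ± 0.17 and -1.44 ± 0.17), and *Erbb4*, the receptor of *Nrg4*, had no count in any library. *Lepr*, the leptin receptor, reached at most 0.596 CPM. *Tlr4* and *Itgav*, reported as partners of resistin and irisin, were lower (-2.13 ± 0.14 at day 2 and -0.79 ± 0.23 at day 6).

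Of the alternative complement genes, in which adipsin acts, 10 of 14 were tested, with 4 higher and 6 lower on both days. *C3*, the substrate that the pathway cleaves, rose from 0.173 to 2.82 CPM at day 0 to 174.9 to 533.5 at day 2 and 296.0 to 1540.5 at day 6. The membrane regulator *Cd46* and the lectin pathway protease *Masp1* were lower at day 6 (-0.93 ± 0.17 and -0.95 ± 0.14). Of the C1q/TNF-related relatives of adiponectin 3 of 14 were tested, with 0 higher and 3 lower at day 2 and 1 higher and 2 lower at day 6. *C1qtnf1* and *C1qtnf6* fell on both days (-3.94 ± 0.23 and -2.59 ± 0.26 at day 2), while *C1qtnf12* was lower at day 2 (-0.57 ± 0.15) and higher at day 6 (2.00 ± 0.15). Of the relatives of resistin, FNDC5 and the neuregulins 7 of 13 were tested, with 2 higher and 3 lower at day 2 and 0 higher and 4 lower at day 6. *Nrg1* and *Fndc4* fell throughout (-4.81 ± 0.11 and -3.24 ± 0.11 at day 6), opposite to *Nrg4* and *Fndc5*.

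Among genes that make or use NAD, the product of the NAMPT pathway, 13 of 16 were tested, with 8 higher and 2 lower at day 2 and 9 higher and 2 lower at day 6. *Nnmt*, which removes nicotinamide by methylation, rose 2.11 ± 0.22 and 5.93 ± 0.23, and the mitochondrial deacetylase gene *Sirt3* was 1.22 ± 0.08 higher at day 6. *Nmnat2*, which acts after NAMPT, fell (-2.24 ± 0.13 and -2.91 ± 0.13). Of the genes for folding and release of adiponectin 10 of 11 were tested, with 7 higher and 2 lower at day 2 and 7 higher and 0 lower at day 6. *Ero1l*, an oxidase of the endoplasmic reticulum, rose most (3.99 ± 0.17 and 5.37 ± 0.18), and *Plod2*, a lysyl hydroxylase, was 2.28 ± 0.15 higher at day 6. Several lists shifted when counts were scaled by library size alone, which moved the median of all genes to -0.27 at day 2 and -0.22 at day 6 on the log2 scale, against -0.02 and -0.03 with TMM. On that scaling the folding list had 3 higher and 2 lower at day 2 and 6 higher and 1 lower at day 6, and the NAD list had 8 higher and 4 lower at day 2 and 8 higher and 2 lower at day 6. The relatives of resistin, FNDC5 and the neuregulins had 1 higher and 5 lower at day 2 and 0 higher and 5 lower at day 6, and the receptors and binding partners 2 higher and 5 lower at day 6.

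Of 25 other factors secreted by fat 21 were tested. At day 2, 8 of them were higher and 9 lower, and at day 6, 9 were higher and 10 lower. This list thus moved in both directions, as did all genes tested, at the shares given above. *Lcn2* (lipocalin 2) was at most 0.256 CPM at day 0, at 43.9 to 62.6 in clone 48 and 261.5 to 369.6 in clone 66 at day 2, and back to at most 3.84 at day 6. *Agt*, the angiotensin precursor, rose 4.88 ± 0.14 to day 2, and *Igf1* was 3.57 ± 0.40 higher at day 6. *Adm* (adrenomedullin) fell on both days (-5.53 ± 0.24 and -3.22 ± 0.21), as did the monocyte chemokine gene *Ccl2* (-5.51 ± 0.22 and -5.89 ± 0.22). Of the 12 adipocyte transcription factors 11 were higher and 1 lower at day 2 and 10 higher and 1 lower at day 6, with *Rxra*, supplied by the virus, among them. *Cebpa* rose 5.10 ± 0.17 by day 2, and *Klf15*, a Krüppel-like factor of adipocytes, went from at most 0.407 CPM at day 0 to 1.31 to 3.75 at day 2 and 85.6 to 133.5 at day 6. *Nr4a1* was lower on both days (-1.96 ± 0.22 and -0.76 ± 0.21). No gene of any of these lists was called between *Rxra*SA and *Rxra*WT.

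**Figure D5:**
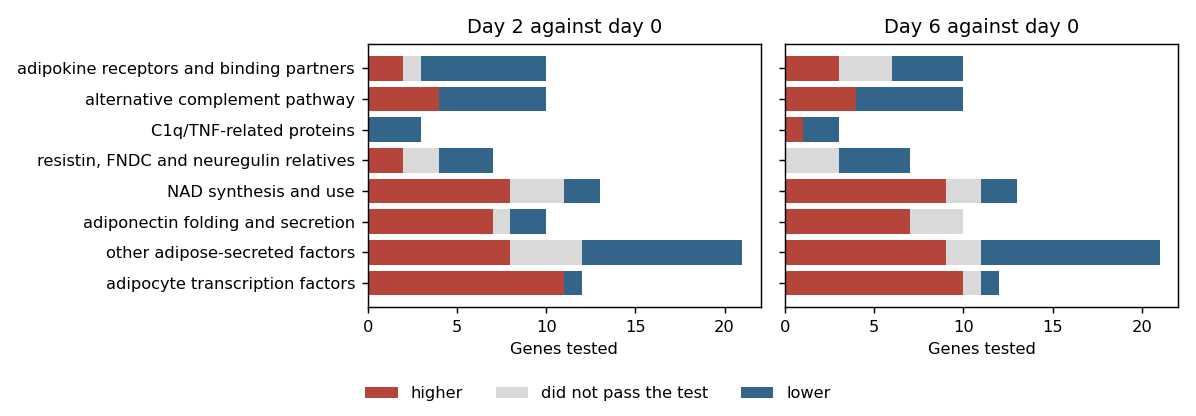
Number of tested genes of each list that were higher, did not pass the test or were lower at day 2 and at day 6 than at day 0 (adjusted p under 0.05). The transcription factor, NAD and folding lists lean towards higher, and the list of other secreted factors is divided, as are all genes tested.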

How the data were processed

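The libraries were stranded total RNA libraries. Per the study's methods and the submitters' processing notes, the authors used STAR 2.7.0d to align read pairs to GRCm38 and featureCounts 1.6.2 to count them on exons of GENCODE M21, without strand and without ambiguous pairs, and deposited raw counts per gene. Groups and replicate numbers came from the sample labels.

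Low genes were removed by filterByExpr in edgeR 4.0.16 (a minimum of 10 counts, that is 0.5453 CPM at the median library) and scaled by TMM in R 4.3.3. edgeR's quasi-likelihood test was fitted on a coefficient for each genotype and day plus clone, as in the authors' edgeR 3.24.3 design, and for contrasts between clones on clone, genotype and day. Replicate numbers paired the libraries of the 2 genotypes, since the correlation of their deviations from the group means over 9726 genes was over 0.1 in 18 of 18 pairs (0.178 to 0.922, median 0.809). Ratios of summed counts have exact 95% binomial intervals. Alternatives were the replicate block, clone-specific groups, edgeR's version 4 test, DESeq2 1.42.0, other scalings and filters, fits of the compared days only and leaving out each replicate. Pathway genes were named by size of change, up to 2 in each direction per list and day among called genes whose log2 CPM averaged 1 or more, and Pearson's r named the 3 genes most like each member. One result that this rule selects is not reported here. The members and lists were chosen with earlier results of these data known. Proteins, immunoblots and lipid stainings were not analysed here.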

Additional observations from a re-analysis of the deposited data

Results flagged for a closer look

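In 4 of 50 groups of 6 libraries tested, 1 library stood apart from the other 5 by Dixon's 95% criterion, which chance meets in about 1 of 20 groups. *Retn* in *Rxra*WT at day 2 was at 26.0 CPM in replicate 2 of clone 48 (377 counts), against 13.9 to 18.4 in the others. The other 3 were single counts where the remaining libraries had none. They were *Lep* in *Rxra*SA at day 0 (0.047 CPM) and at day 2 (0.0577 CPM), both in replicate 2 of clone 66, and *Rbp4* in *Rxra*WT at day 2 in replicate 3 of clone 66 (0.0545 CPM).

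The change over time differed between the clones, by the interaction term of edgeR's quasi-likelihood test, in 5 instances. On the log2 scale, clone 66 minus clone 48, these were *Cfd* from day 0 to day 2 (-2.54, adjusted p = 0.00107), *Adipoq* from day 0 to day 6 (2.52, adjusted p = 0.00332), and *Adipoq* (2.30, adjusted p = 0.000365), *Cfd* (2.07, adjusted p = 2.93e-05) and *Retn* (-0.94, adjusted p = 0.0104) from day 2 to day 6. The *Retn* value did not pass without the third replicate of clone 66 (adjusted p = 0.0582). The part of the sequencing pool, which coincides with the clone, cannot be told apart.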

How the results depend on the processing

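Of 2406 values of single adipokines under 17 alternatives, 2372 kept their side of the threshold, 21 lost a call and 13 gained one. No called value changed sign, while 112 uncalled values, counted among the 2372, did. Between days the number of adipokines called was 9 for day 6 under every alternative, and 5 to 7 for day 2 against day 0. The genotype called 0 of 9 under every alternative. Between clones, 5 adipokines were called at day 2 and 3 without the filter on low counts. With replicates left out the number called was 2 to 3 at day 0, 3 to 6 at day 2 and 5 to 8 at day 6, and 1 to 2 and 2 to 3 for the change over time from day 0 to day 6 and from day 2 to day 6. With replicate number as a block the change from day 0 to day 6 called 2 in place of 1, and beside the calls given above the block changed no other call. The *Retn* difference between clones at day 2 also missed the threshold with edgeR's version 4 test, RLE size factors, no filter and a filter of 1 CPM (adjusted p = 0.0624, 0.0549, 0.0569 and 0.0517), and *Fndc5* at day 2 without the filter (adjusted p = 0.0615). *Adipoq* at day 6 passed between clones without the filter, without the third replicate of clone 48 and with the libraries of day 6 alone (adjusted p = 0.00994, 0.0105 and 0.0150). *Nampt* passed at days 2 and 6 without the third replicate of clone 48 (adjusted p = 0.0283 and 0.0189) and without the first of clone 66 (adjusted p = 0.0187 and 0.0114). Per length of the longest transcript, *Nrg4* was at 0.601, 0.835 and 3.34 CPM per kilobase on days 0, 2 and 6 and *Retn* at 15.6 on day 2. *Lep*, *Rbp4* and *Fndc5* were not tested in fits of days 0 and 2 without day 6, where too few counts remained. The causes were not tested. Counting error limits *Lep*, *Rbp4* and *Fndc5*, with at most 6 counts per library before day 6.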

Other observations

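Some adipokines followed the replicate number across the 4 lines (2 clones with 2 genotypes). *Adipoq* was lowest in the third replicate in 4 of 4 lines on all 3 days, at a mean of 0.259, 0.541 and 0.673 of the other replicates of the line on days 0, 2 and 6. *Cfd* and *Retn* were likewise lowest in the third replicate in 4 of 4 lines at days 2 and 6, and *Nampt* was highest in the first in 4 of 4 lines on all 3 days. *Rbp4* at day 6 was lowest in the first replicate in 4 of 4 lines, at 1.12 to 2.07 CPM against 3.07 to 5.01 in the others, a mean ratio of 0.374. *Lep* at day 6 was also lowest in the first, by less (mean ratio 0.872). These values were noticed in the data and no test was run on them.

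A few genes outside the 9 adipokines were read in clone 66 and not, or hardly, in clone 48. *Slit2*, which encodes a secreted guidance factor, had no count in any library of clone 48 and 1.47 to 2.76 CPM at day 0, 1.15 to 2.94 at day 2 and 0.193 to 0.495 at day 6 in clone 66. *Retnla*, a relative of resistin, was at 0.981 to 2.54 CPM in clone 66 and at most 0.325 in clone 48 at day 2, and had no count at day 6 in either clone. *Fgf21*, a metabolic hormone gene, was at 0.981 to 2.25 CPM in clone 66 and 0.124 to 0.4 in clone 48 at day 6. These genes were picked after their values were seen.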
